A study of Mus musculus with 45 samples.

Results

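The genes described here are the 6 TspanC8 tetraspanins, Tspan5, Tspan10, Tspan14, Tspan15, Tspan17 and Tspan33, their partner protease Adam10, and the related protease Adam17. These 8 genes, of 55401 in the annotation, were matched by gene symbol to the Ensembl identifiers of the count and TPM tables. Tspan5 was chosen by its measured levels, which were already known from these data to be higher in Pkd1KO kidneys, and the other genes as the further partners of Adam10. The levels of Tspan5 in that genotype are therefore given as a description, with no test.

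Tetraspanins cross the membrane repeatedly and gather other membrane proteins around themselves. The TspanC8 members, named for the number of cysteines in their large extracellular loop, bind ADAM10, a metalloprotease that cuts the extracellular part from membrane proteins such as Notch receptors, cadherins and the precursor of betacellulin. They help ADAM10 leave the endoplasmic reticulum, and which TspanC8 it is bound to affects where it goes and which substrates it cuts. ADAM17, the sheddase of TNF and of several ligands of the EGF receptor, is not a TspanC8 partner and instead depends on the iRhom proteins (Rhbdf1 and Rhbdf2).

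RNA was measured by TRAP RNASeq, in which RNA on tagged ribosomes is pulled down, in kidneys of 45 mice. In all of them Pax8rtTA and TetOCre, given doxycycline from postnatal day 28 to day 42, switched on Cre and the L10a-EGFP ribosomal protein of R26Rpl10a in tubule cells, and kidneys were taken at day 49 (7 weeks). Noncystic mice carried 1 floxed Pkd1 allele (Pkd1fl/+; 8 males and 7 females), Pkd1KO mice carried 2 (Pkd1fl/fl; 7 males and 8 females), and Pkd1KO+ciliaKO mice also carried 2 floxed alleles of the ciliary motor gene Kif3a (9 males and 6 females). The controls therefore also had Cre, doxycycline and 1 Pkd1 allele open to recombination. Pkd1 encodes polycystin-1, the gene most often mutated in autosomal dominant polycystic kidney disease, and loss of cilia slows cyst growth after loss of Pkd1, so genes that change in Pkd1KO but not in Pkd1KO+ciliaKO were the study's question. Each mouse was 1 library and 1 replicate.

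Libraries held 80874556 to 132958186 counted reads (median 103070359). Kif3a went against the label in 2 female libraries: it stood at 6.61 CPM (reads relative to the size of the library) in the library labelled noncystic female replicate 5 against 22.9 to 25.1 in the other 6, and at 20.5 in the library labelled Pkd1KO+ciliaKO female replicate 6 against 6.49 to 8.37 in the other 5. Another 4 libraries, of noncystic male replicate 3, Pkd1KO male replicate 4 and Pkd1KO+ciliaKO male replicates 6 and 8, lay apart from the other males on the first principal component. All were kept. Some of the results that rest on them are also given without them, and the others are with all mice only. Counts of Pkd1 over the whole gene did not check the Pkd1 labels. Against noncystic mice its log2 difference in Pkd1KO was -0.45 in males (edgeR quasi-likelihood adjusted p = 0.0991) and -0.22 in females (adjusted p = 0.418). In Pkd1KO+ciliaKO it was -0.13 in males and 0.08 in females, also not called. Proximal tubule markers were high throughout (6 genes summing to 8329 to 17384 CPM), and podocyte markers, which sum to 28.4 to 113 CPM, were low but present. In pulled-down RNA of a whole kidney, fewer cells of a type and less RNA per cell cannot be told apart.

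The stretches of DNA just upstream of Tspan5, Adam10 and Tspan15, the genes that differed between noncystic males and females, are shown because they hold the promoters of the RNAs measured. They are from RefSeq (GRCm38.p6), read 5′ to 3′ on the gene's strand, and end before the first base of any transcript start in RefSeq or in the annotation of the files. Capitals mark the Sp1 letters GGGCGG on either strand (CCGCCC on the other). The Tspan5 stretch is 237 bases on the plus strand, chr3:138741958-138742194, the Adam10 stretch 250 bases on the plus strand, chr9:70678732-70678981, and the Tspan15 stretch 217 bases on the minus strand, chr10:62231252-62231468.
Tspan5: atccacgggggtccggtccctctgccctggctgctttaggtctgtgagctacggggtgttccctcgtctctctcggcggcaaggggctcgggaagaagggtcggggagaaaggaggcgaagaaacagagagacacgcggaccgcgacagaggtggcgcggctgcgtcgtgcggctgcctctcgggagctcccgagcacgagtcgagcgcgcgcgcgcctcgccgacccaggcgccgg
Adam10: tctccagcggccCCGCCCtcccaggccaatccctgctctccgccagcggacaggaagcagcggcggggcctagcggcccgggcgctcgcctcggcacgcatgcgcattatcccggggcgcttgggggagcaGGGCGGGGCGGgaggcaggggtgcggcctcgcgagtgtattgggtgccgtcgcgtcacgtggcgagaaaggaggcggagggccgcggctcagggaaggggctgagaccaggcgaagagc
Tspan15: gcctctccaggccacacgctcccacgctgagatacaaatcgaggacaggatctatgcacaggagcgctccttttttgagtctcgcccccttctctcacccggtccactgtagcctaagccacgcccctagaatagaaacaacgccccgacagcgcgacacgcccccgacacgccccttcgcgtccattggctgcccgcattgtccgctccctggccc

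Counts of bases and letters were made over the full 250 bases before each RefSeq start, of which the stretches above are the part upstream of every annotated start. All 3 were rich in G and C, at 70.8% for Tspan5, 74.0% for Adam10 and 63.2% for Tspan15, against a median of 52.4% before 32851 mouse transcript starts outside chromosome 18. They held 33, 29 and 23 CG pairs against a median of 6. Adam10 held 3 Sp1 matches in 2 runs, 2 of them overlapping, Tspan5 held 1, which lies across its annotated start and so beyond the printed bases, and Tspan15 held none. Of all promoters, 32.7% held at least 1. None of the genes had the TEAD letters CATTCC (in 12.6% of promoters) or the RBPJ letters TGGGAA (in 21.6%), the latter bound by the DNA-binding partner of Notch, on either strand. The E-box CACGTG (6.02% of promoters) was found in Adam10 alone, and AGAACA, one arm of an androgen response element (16.1%), in Tspan33 alone. A match is a string of letters and not a site.

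Tspan5 lies on chromosome 3 (GRCm38, 138742195-138907905, plus strand, ENSMUSG00000028152.10). In the tests given here levels of a gene are compared between mice as CPM after trimmed mean (TMM) scaling. In noncystic males Tspan5 ran from 35.7 to 52.6 CPM with a median of 45.3, and in noncystic females from 29.1 to 37.5 with a median of 31.3. In Pkd1KO males it ran from 57.5 to 77.1 (median 67.9), and in Pkd1KO females from 40.1 to 61.1 (median 50.6). In CPM every Pkd1KO mouse stood above every noncystic mouse of its sex. The means were 68.8 ± 6.85 (SD, n = 7) against 44.96 ± 5.28 (n = 8) in males and 50.3 ± 7.12 (n = 8) against 33.0 ± 3.20 (n = 7) in females, a fitted difference of 0.61 on the log2 scale in each sex (1.53-fold; SE 0.0826 in males and 0.0865 in females). In CPM, groups that do not overlap were found for 2.11% of genes in males and 1.06% in females in this comparison. In TPM the male groups overlapped, as Pkd1KO male replicate 2 was at 18.9 and noncystic males ran from 16.5 to 21.6. Female groups did not overlap in TPM, at 19.6 to 26.4 in Pkd1KO against 13.1 to 17.3.

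In Pkd1KO+ciliaKO females Tspan5 lay near the noncystic level, and in Pkd1KO+ciliaKO males its median was between those of noncystic and Pkd1KO males. In Pkd1KO+ciliaKO mice it ran from 30.7 to 60.8 CPM (median 51.2) in males and from 27.3 to 37.1 (median 31.9) in females. All 8 Pkd1KO females were above all 6 Pkd1KO+ciliaKO females, as 2.99% of genes did without overlap, whereas among males 6 of 7 Pkd1KO mice were above all 9. Pkd1KO exceeded Pkd1KO+ciliaKO by 0.47 (SE 0.121) in males and 0.63 (SE 0.0958) in females on the log2 scale. These Tspan5 differences use the same Pkd1KO mice as those against noncystic mice and are also given as a description. Leaving out the libraries that stand apart gave 0.57 against noncystic and 0.36 against Pkd1KO+ciliaKO in males, and 0.63 and 0.61 in females.

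**Figure D1:**
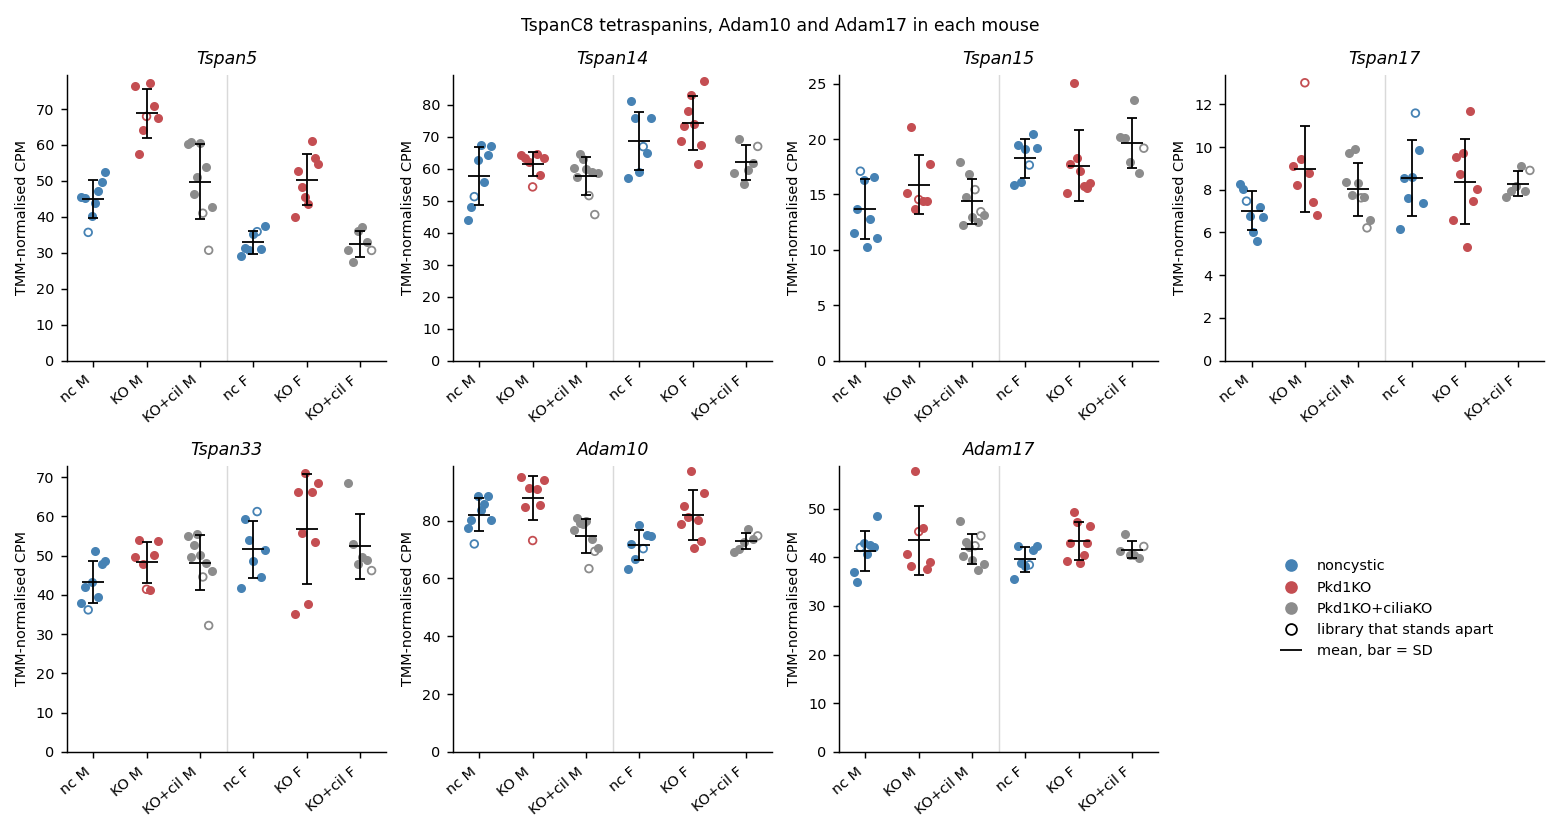
Levels of the 7 detected genes in every mouse (TMM-normalised CPM, 1 panel a gene) by genotype (nc, noncystic; KO, Pkd1KO; KO+cil, Pkd1KO+ciliaKO) and sex (M and F), with the group mean and SD as bars and open symbols for libraries that stand apart. Tspan5 was between 57.5 and 77.1 in Pkd1KO males, above all noncystic males, and between 40.1 and 61.1 in Pkd1KO females, above all noncystic and all Pkd1KO+ciliaKO females.

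The difference of Tspan5 between Pkd1KO+ciliaKO and noncystic mice was tested with edgeR's quasi-likelihood test. The study had listed Tspan5 for higher levels in Pkd1KO than in both of these genotypes. The same mice thus entered the choice of the gene, and the test is not independent of it. The difference was 0.15 on the log2 scale in males (95% interval -0.11 to 0.40, Benjamini-Hochberg adjusted p = 0.494) and -0.02 in females (-0.19 to 0.15, adjusted p = 0.898). In males 4 of 9 Pkd1KO+ciliaKO mice were above all 8 noncystic mice and 1 was below all of them, a wider spread (SD 10.4 CPM) than in noncystic males (SD 5.28). Without the 4 male libraries the Pkd1KO+ciliaKO mean was 53.7 ± 7.37 (n = 7) against 46.3 ± 4.01 (n = 7), with a log2 difference of 0.21 (adjusted p = 0.117).

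Some markers of other cells and of tubule segments differed in the same comparisons. In Pkd1KO against noncystic males 2 of 6 macrophage markers (Csf1r and Lyz2), 2 of 4 tubule injury markers (Lcn2 and Krt20), 2 of 4 podocyte markers and 1 of 2 tested mast cell markers were called higher, and 1 of 3 thick ascending limb and 1 of 6 proximal tubule markers lower, beside 6.3% of all genes. Their summed levels overlapped for macrophages (94.4 to 356 CPM against 68.8 to 97.9), injury (23.1 to 157 against 13.6 to 67.8), podocytes (45.7 to 113 against 28.4 to 79.3) and thick ascending limb (1641 to 2993 against 2014 to 4039), and did not overlap for mast cells (0.890 to 3.52 against 0.131 to 0.289). Without the 4 male libraries that stand apart the calls were 0 of 6, 1 of 4, 1 of 4 and 1 of 2 higher and 1 of 3 and 1 of 6 lower, and the log2 difference of Tspan5 was 0.57.

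In Pkd1KO against noncystic females 1 of 3 mast cell markers was higher and 1 of 3 thick ascending limb markers lower, beside 3.34% of all genes called. Of macrophage, injury and podocyte markers 0 of 6, 0 of 4 and 0 of 4 were called there. Against Pkd1KO+ciliaKO mice 1 of 6 macrophage markers was higher and 1 of 3 thick ascending limb and 1 of 3 distal convoluted tubule markers were lower in Pkd1KO in each sex, and in females 1 of 3 mast cell and 1 of 4 injury markers were higher. Beside these, 3.77% of all genes were called in males and 11.7% in females. Summed mast cell markers ran from 1.69 to 7.25 CPM in Pkd1KO females against 0.508 to 2.94 in noncystic and 0.992 to 2.06 in Pkd1KO+ciliaKO females, and thick ascending limb markers from 2317 to 3885 against 2831 to 3925 and 3096 to 4488. The part of these cells in the Tspan5 difference was not tested.

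None of the other TspanC8 genes passed the test between Pkd1KO and noncystic mice in either sex. Whether their differences were smaller than that of Tspan5 was not tested. Tspan14 (chromosome 14, 40906445-40966807, minus strand) is a widely expressed ADAM10 partner. It ran from 54.3 to 64.5 CPM in Pkd1KO males (median 63.3) and from 44.1 to 67.3 in noncystic males (median 59.4), with 0 of 7 Pkd1KO mice above the noncystic range. In females it ran from 61.5 to 87.3 (median 73.7) against 57.1 to 81.1 (median 66.9). The log2 differences were 0.09 in males (adjusted p = 0.606) and 0.11 in females (adjusted p = 0.580).

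Tspan33 (chromosome 6, 29694222-29718559, plus strand) is known from work on ADAM10 at cell junctions and in red cell precursors. It ran from 41.3 to 54.0 CPM in Pkd1KO males and from 36.2 to 51.1 in noncystic males, and from 35.1 to 71.0 in Pkd1KO females and 41.8 to 61.3 in noncystic females. The groups overlapped in both sexes, and in females Pkd1KO mice lay on both sides of the noncystic range, 4 above it and 2 below. The log2 differences were 0.15 in males (adjusted p = 0.301) and 0.14 in females (adjusted p = 0.725).

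Tspan15 (chromosome 10, 62185396-62231251, minus strand) is known to favour the cutting of N-cadherin by ADAM10, and 39 of its bases overlap the microRNA gene Mir7662. It was at 13.6 to 21.1 CPM in Pkd1KO males against 10.3 to 17.1 in noncystic males, and at 15.1 to 25.1 in Pkd1KO females against 15.9 to 20.5 in noncystic females. Its log2 difference was 0.22 in males (adjusted p = 0.335) and -0.05 in females (adjusted p = 0.868).

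Tspan17 (chromosome 13, 54789377-54796776, plus strand), which is close in sequence to Tspan5, had a log2 difference of 0.36 in males with a wide interval (0.08 to 0.63). It ran from 6.82 to 13.0 CPM in Pkd1KO males against 5.61 to 8.26 in noncystic males, with 4 of 7 Pkd1KO mice above the noncystic range, and the difference did not pass the test (adjusted p = 0.114). Without the 4 male libraries that stand apart, which include the highest Pkd1KO male, it was 0.26 (adjusted p = 0.202). In females the ranges were 5.29 to 11.7 and 6.15 to 11.6, and the log2 difference was -0.02 (adjusted p = 0.965). The male and female differences of Tspan17 were not distinguishable (interaction 0.38, adjusted p = 0.614), nor were those of any other tested member, in a test that called 0.0126% of genes for Pkd1KO against noncystic, 0.221% for Pkd1KO against Pkd1KO+ciliaKO and 0.0316% for Pkd1KO+ciliaKO against noncystic.

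Tspan10 (chromosome 11, 120442644-120446950, plus strand), best known from retinal pigment epithelium, was at the floor. It had 10 reads in all, spread over 8 of 45 mice with at most 3 in one, and a count of 0 allows up to 3 reads, or 0.0226 to 0.0371 CPM by library, for counting error only. It did not pass the filter and was not compared.

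Adam10 itself (chromosome 9, 70678997-70780229, plus strand) stood slightly higher in Pkd1KO mice, within the limits of the test. It ran from 73.1 to 95.1 CPM in Pkd1KO males (median 91.1), from 72.0 to 88.5 in noncystic males (median 82.1) and from 63.4 to 81.0 in Pkd1KO+ciliaKO males (median 76.8). In females it ran from 70.5 to 97.3 (median 80.7) in Pkd1KO, from 63.3 to 78.5 (median 71.9) in noncystic and from 69.3 to 77.2 (median 73.2) in Pkd1KO+ciliaKO. Pkd1KO had the highest median in both sexes, and 6 of 8 Pkd1KO females lay above all noncystic and 6 of 8 above all Pkd1KO+ciliaKO females. Against noncystic mice the log2 difference was 0.10 in males (adjusted p = 0.385) and 0.20 in females (adjusted p = 0.128).

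Against Pkd1KO+ciliaKO mice Adam10 was at the edge of the threshold in males. The log2 difference was 0.23 (SE 0.0635, adjusted p = 0.0515), and 6 of 7 Pkd1KO males were above all 9 Pkd1KO+ciliaKO males, the exception being replicate 4, a library that stands apart. Without that replicate the difference was 0.27 (adjusted p = 0.0195), and without all 4 male libraries that stand apart it was 0.22 (adjusted p = 0.0229). DESeq2 gave 0.24 (adjusted p = 0.0111), whereas limma on TPM gave 0.10 (adjusted p = 0.358), so the call turned on the setting. In females the difference was 0.17 (adjusted p = 0.117).

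Adam17 (chromosome 12, 21323509-21373632, minus strand) had group means of 39.6 to 43.5 CPM and was called in no comparison of genotypes. It ran from 37.7 to 57.6 CPM in Pkd1KO males and from 34.9 to 48.5 in noncystic males, and from 38.7 to 49.3 in Pkd1KO females and 35.5 to 42.3 in noncystic females. The largest of its log2 differences in the Pkd1KO comparisons was 0.14, in females against noncystic (adjusted p = 0.272). Of its exon bases, 311 (4.35%) overlap Iah1 on the other strand, and how the authors' counting treated strand is not given in the sources used here.

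**Figure D2:**
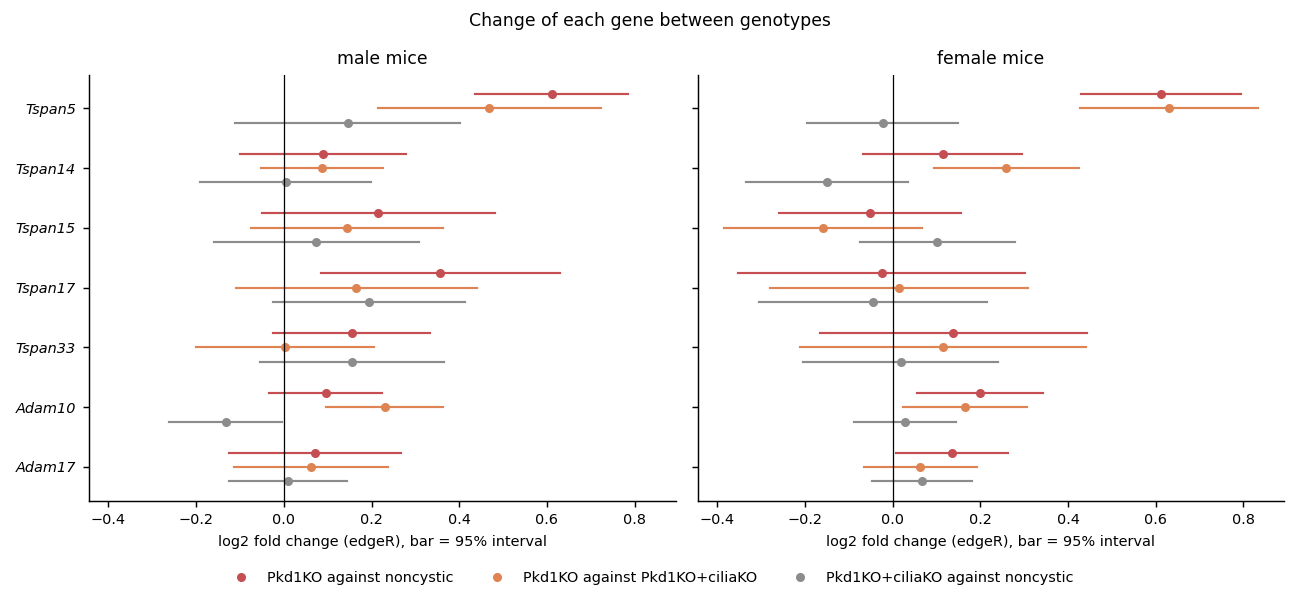
Log2 differences of each gene (points, with 95% intervals as lines) in the 3 comparisons of genotypes, in 1 panel for males and 1 for females, coloured by comparison. Points of Tspan5 in the comparisons with Pkd1KO, at 0.47 to 0.63, lie to the right of the other genes and are a description, and Tspan14 in females against Pkd1KO+ciliaKO (0.26) passed the test.

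Tspan14 was the only tested member called in a comparison of genotypes. It was higher in Pkd1KO than in Pkd1KO+ciliaKO females by 0.26 on the log2 scale (SE 0.0781, adjusted p = 0.0425), with 61.5 to 87.3 CPM (median 73.7) against 55.2 to 69.4 (median 60.7) and 5 of 8 Pkd1KO mice above all 6 Pkd1KO+ciliaKO mice. The adjusted p passed the threshold by little: it ran from 0.0550 to 0.105 without any one of Pkd1KO female replicates 2, 3, 4, 5 and 8 or Pkd1KO+ciliaKO female replicates 1, 3, 4 and 5. It was 0.190 with replicate number as a block, although the numbers do not pair the mice. Without the 2 females whose Kif3a goes against the label it was 0.0424. In males the difference was 0.09 (adjusted p = 0.487).

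The count of 1 of 6 stands beside a background of 11.7% of all genes called in females for Pkd1KO against Pkd1KO+ciliaKO. In the other comparisons with Pkd1KO 0 of 6 passed, beside 3.77% for males against Pkd1KO+ciliaKO and, against noncystic, 6.3% for males and 3.34% for females. Of 7 members tested between Pkd1KO+ciliaKO and noncystic mice, 0 passed in either sex, beside 8.89% in males and 2.54% in females. These include Tspan5, whose choice used the same mice. In females this comparison holds both libraries whose Kif3a goes against the label, and Kif3a itself was not called in it (-1.16, edgeR adjusted p = 0.0605). Without those 2 libraries 926 genes were called instead of 405, and again 0 members. Tspan15 in females was lower in Pkd1KO than in Pkd1KO+ciliaKO by a log2 difference of -0.16 (adjusted p = 0.352) that became -0.25 (adjusted p = 0.0435) without Pkd1KO replicate 3, the mouse with the highest level.

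Noncystic males and females differed in 3 of the 7 detected members, beside 27.5% of all genes, and the members moved in both directions. Tspan5 was higher in males by 0.47 on the log2 scale (1.38-fold, SE 0.0822, edgeR adjusted p = 0.000437), and 7 of 8 males were above all 7 females. Adam10 was higher in males by 0.22 (SE 0.0603, adjusted p = 0.0127), with 6 of 8 males above all females. Tspan15 was lower in males by a log2 difference of -0.40 (SE 0.111, adjusted p = 0.0119), at 10.3 to 17.1 CPM against 15.9 to 20.5, with 5 of 8 males below all females. These 3 calls held under all 6 alternative settings and without each of the 15 mice in turn.

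The other TspanC8 genes were lower in males without passing the test. Tspan14 differed by -0.24 (adjusted p = 0.103), Tspan17 by -0.27 (adjusted p = 0.114) and Tspan33 by -0.23 (adjusted p = 0.0743), while Adam17 differed by 0.08 (adjusted p = 0.396). Without noncystic female replicate 1 Tspan17 (adjusted p = 0.0414) and Tspan33 (adjusted p = 0.0352) passed, as did Tspan33 without noncystic male replicate 5 (adjusted p = 0.0423). Tspan33 also passed with replicate number as a block (adjusted p = 0.0338), although the numbers do not pair the mice. Segment markers differed between the sexes as well, beside 27.5% of all genes called. Among noncystic mice 2 of 6 proximal tubule markers were higher in males, and 2 of 4 principal cell, 3 of 5 intercalated cell and 3 of 4 injury markers were lower. Their part in the sex differences of the members was not tested.

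**Figure D3:**
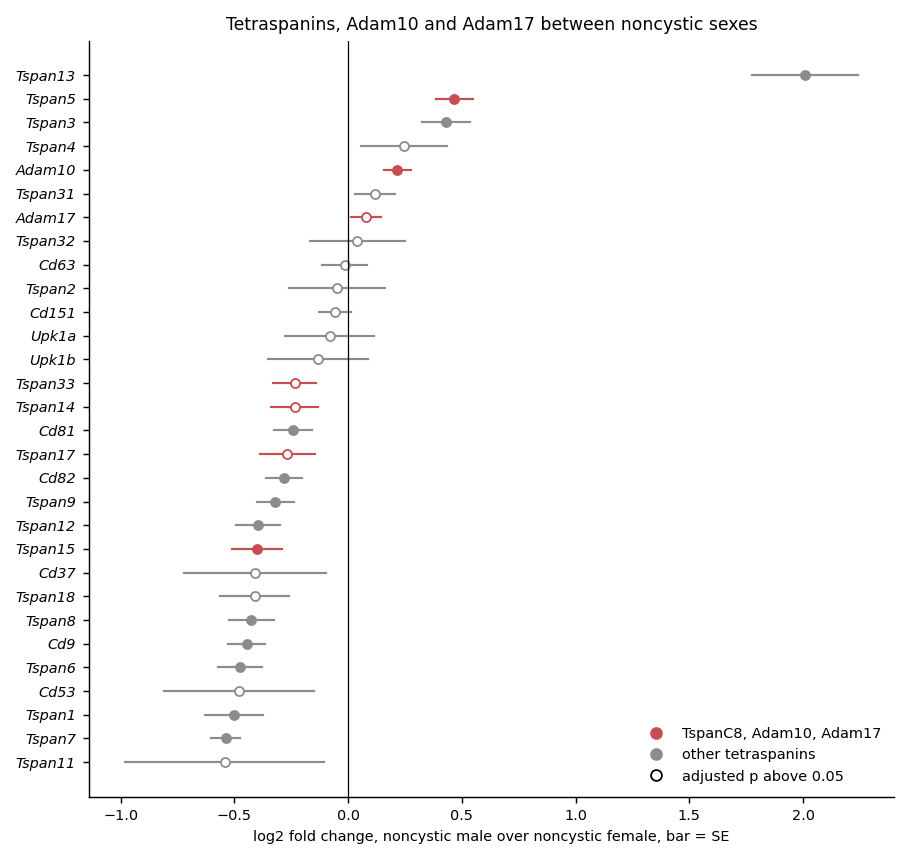
Log2 differences between noncystic males and noncystic females for the 7 detected members (red) and 23 other tetraspanins (grey), with the SE as lines and filled points where the adjusted p was at most 0.05. Among the members Tspan5 (0.47) and Adam10 (0.22) were higher in males, Tspan15 (-0.40) was lower, and the open points did not pass the test.

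To compare genes with each other the TPM values were used, which are per length and were scaled separately for each sex. Tspan14 was the highest in males at a median of 69.8 TPM, above Adam10 (50.5) and Tspan33 (28.4), an order seen in 24 of 24 mice at each step. Tspan5 followed at 19.5, below Tspan33 in 21 of 24, then Adam17 at 17.3, below Tspan5 in 20 of 24, Tspan17 at 14.7 and Tspan15 at 5.33. In females Tspan14 (89.1), Adam10 (51.5), Tspan33 (35.4) and Adam17 (19.8) kept this order in 21 of 21 mice. Over all genotypes Tspan5 at 17.3 TPM was above Tspan17 at 17.1 in 10 of 21 females, but their order differed between genotypes. Tspan17 was the higher in 6 of 6 Pkd1KO+ciliaKO and 5 of 7 noncystic females. In Pkd1KO females the mean of Tspan5 was the higher, at 22.8 TPM against 16.9. Tspan15 was again lowest in females at 7.52. In Pkd1KO males Tspan5, at a mean of 27.6 TPM, stood level with Tspan33 at 27.3 and was the higher in 3 of 7 mice. The TPM of Pkd1KO male replicate 2 summed to 727843 over protein-coding genes, the lowest of all mice, and Tspan5, Tspan14, Tspan17, Adam10 and Adam17 had their lowest TPM of the 7 Pkd1KO males there.

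Tspan5 made up a modest share of the TspanC8 RNA. Of the summed TPM of the 5 detected TspanC8 genes within a mouse it was 14.5% ± 1.66 (SD, n = 8) in noncystic males, 18.9% ± 1.79 (n = 7) in Pkd1KO males and 15.0% ± 1.95 (n = 9) in Pkd1KO+ciliaKO males. In females it was 9.41% ± 1.04 (n = 7), 12.9% ± 1.73 (n = 8) and 9.76% ± 1.43 (n = 6). Pkd1KO and noncystic mice overlapped slightly in each sex, from 15.7% to 20.9% against 12.5% to 16.9% in males and from 10.4% to 15.5% against 7.88% to 10.9% in females. Tspan14 made up the most in every group, from 47.1% in Pkd1KO males to 54.3% in noncystic females on average. The summed TspanC8 TPM was 2.52 to 3.29 times that of Adam10 in the group means, lowest in noncystic males and highest in noncystic females. These shares rest on the Tspan5 levels above and are a description.

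**Figure D4:**
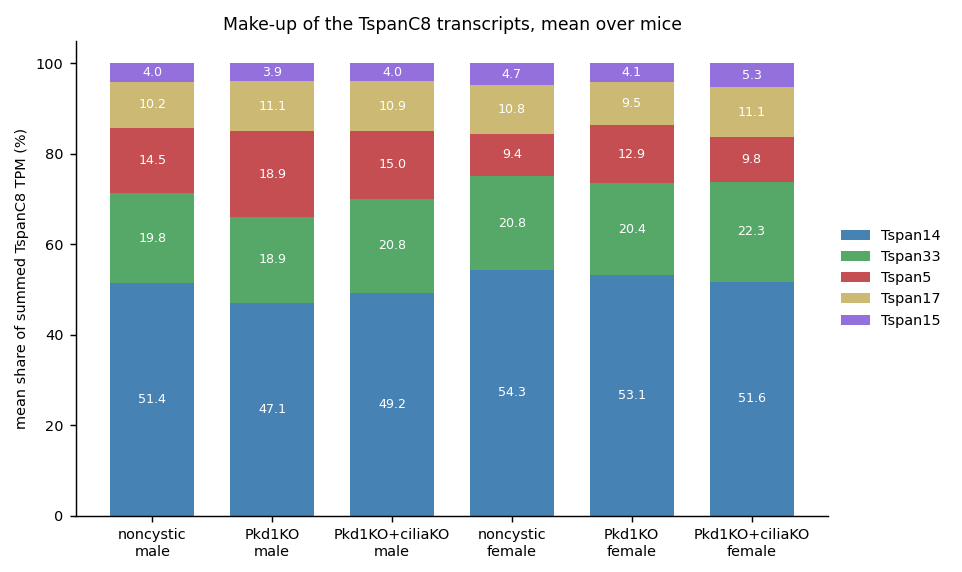
Share of each TspanC8 gene in the summed TspanC8 TPM (stacked bars, percent, mean over the mice of a group) for the 6 groups. Tspan14 takes the most in every group, and Tspan5 takes 18.9% in Pkd1KO males and 12.9% in Pkd1KO females against 14.5% and 9.41% in noncystic mice.

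Whether Adam10 moved with its partners from mouse to mouse was asked within genotypes, on deviations of log2 CPM from the mean of each group, with 10 relations in all and permutations of mice within groups. In 24 males Adam10 moved with Tspan14 (Pearson r = 0.627, permutation p = 0.00093, adjusted 0.0093; Spearman rho = 0.603, p = 0.00266, adjusted 0.0266), and r was 0.631 without the 2 mice farthest from the median. For Tspan5 r was 0.524 (p = 0.0109, adjusted 0.0365) and rho 0.523 (adjusted p = 0.0554), with an r of 0.436 without the 2 farthest mice, and for Tspan33 r was 0.546 (adjusted p = 0.0365) and rho 0.462 (adjusted p = 0.0660). For Tspan15 r was 0.0124 and for Tspan17 -0.150. None of the male relations held without the 4 libraries that stand apart: over the remaining 20 males r fell to 0.466 for Tspan14 (permutation p = 0.0551), 0.330 for Tspan5 (p = 0.177) and 0.222 for Tspan33 (p = 0.378). In 21 females the strongest was Tspan17 (r = 0.576, permutation p = 0.0260, adjusted 0.0650), for which r was 0.652 over 19 females without the 2 whose Kif3a goes against the label (permutation p = 0.0146, not adjusted), and for Tspan5 r was 0.269 (adjusted p = 0.386).

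**Figure D5:**
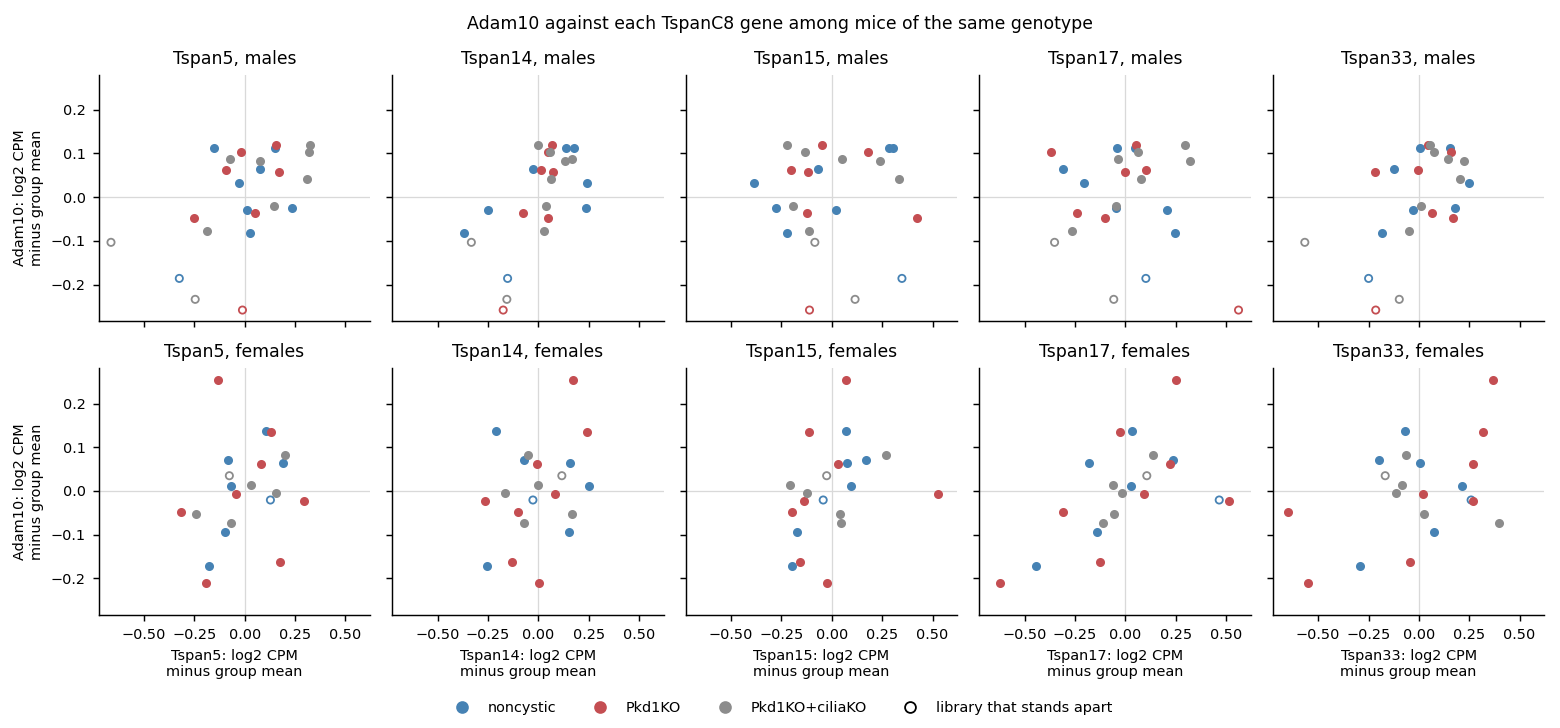
Deviation of log2 CPM from the group mean for Adam10 (vertical) against each TspanC8 gene (horizontal), 1 point a mouse, with males and females in separate rows and open symbols for libraries that stand apart. In males the 4 open symbols are the lowest for Adam10 in their panels, and without them r is 0.466 for Tspan14, 0.330 for Tspan5 and 0.222 for Tspan33.

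Among 15828 genes measured in both sexes, those whose levels were most like Tspan5 over the mice were Tor2a, a torsin ATPase (r = 0.897 over 24 males and 0.842 over 21 females), Slc39a1, a zinc importer (0.867 and 0.824), Nif3l1 (0.808 and 0.821), Tfdp1, the dimer partner of E2F factors (0.805 and 0.871), and Rab23, a small GTPase of ciliary Hedgehog signalling (0.844 and 0.804). Adam10 was 208th in this order (0.589 and 0.644), and the other TspanC8 genes were further down, from 1311th for Tspan33 to 9530th for Tspan15. The genes most like Adam10 were F2, which encodes prothrombin (0.830 and 0.821), Asah1, an acid ceramidase (0.849 and 0.776), Sppl2a, an intramembrane protease (0.806 and 0.776), Slc37a3 (0.827 and 0.751) and Itfg1 (0.799 and 0.749). These values are descriptive and include differences between genotypes. They also include the libraries that stand apart and were not computed without them.

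Other genes of the family and of the pathway were examined as lists. Of 23 other tetraspanins 0 were called between Pkd1KO and noncystic mice in either sex, with median log2 differences of 0.11 in males and -0.06 in females beside -0.01 and 0.00 over all genes. Against Pkd1KO+ciliaKO mice 1 of 23 was called in males and 3 of 23 in females, all lower in Pkd1KO, beside 3.77% and 11.7% of all genes. Tspan12, a Norrin receptor partner that also binds ADAM10, was lower in both sexes (-0.55, adjusted p = 0.0104 in males and -0.42, adjusted p = 0.00333 in females), and Tspan3 (-0.36) and Tspan2 (-0.62) were lower in females. Between noncystic males and females 2 of 23 were higher in males, Tspan13 (2.01) and Tspan3 (0.43), and 9 were lower, among them Tspan7 (-0.54) and Cd9 (-0.45), so 11 of 23 were called beside 27.5% of all genes, with a median of -0.28 beside -0.01.

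Of 27 genes that encode substrates of ADAM10, 3 were higher and 1 lower in Pkd1KO than in noncystic males. Egf, the growth factor made in the distal tubule, was lower (-1.35 on the log2 scale, adjusted p = 0.000585), while Cxcl16 (0.56), Btc, which encodes betacellulin (0.56), and Cd44, a hyaluronan receptor (1.25), were higher. In females Btc was also higher (0.60, adjusted p = 0.0155), and Kl, the klotho gene (-0.25), and Dsg2, a desmosomal cadherin (-0.37), were lower. The list's medians were 0.03 and 0.01. The share called was 4 of 27 in males and 3 of 27 in females, beside 6.3% and 3.34% of all genes. Cd44 and Cxcl16 are also made by immune cells, of whose markers 2 of 6 for macrophages were called higher in Pkd1KO males. Those macrophage calls did not hold without the 4 males that stand apart. The part of immune cells in these calls was not tested. Summed thick ascending limb markers had a median of 1770 CPM in Pkd1KO males against 2775 in noncystic males. For distal convoluted tubule markers it was 328 against 423, and the ranges overlapped for both. The part of these segments in the Egf call was not tested. Without the 4 males and without the 2 females the counts of substrates called were again 4 and 3 of 27.

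Between Pkd1KO and Pkd1KO+ciliaKO mice the ADAM10 substrates called were Cxcl16 in males (0.50, adjusted p = 0.00804) and Notch2 (0.37), Cdh2, which encodes N-cadherin (0.49), Prnp (0.60) and Cd44 (0.80) in females, all higher in Pkd1KO, as 1 and 4 of 27 beside 3.77% and 11.7% of all genes. Between Pkd1KO+ciliaKO and noncystic mice 1 was higher and 3 lower in males, Btc (0.91), Met (-0.27), Egf (-0.64) and Ager (-1.55), and 1 was lower in females, Prnp (-0.56), beside 8.89% and 2.54% of all genes. Each genotype enters 2 of the 3 comparisons, so values for the same gene, such as those of Btc against noncystic males, share mice.

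ADAM10 cuts Notch receptors before gamma-secretase releases their intracellular part. Of 7 gamma-secretase genes 0 were called between Pkd1KO and noncystic mice, beside 6.3% of all genes in males and 3.34% in females. Psen2, a catalytic subunit, was higher in Pkd1KO than in Pkd1KO+ciliaKO males (0.54, adjusted p = 0.00522) and females (0.33, adjusted p = 0.0236), and lower in Pkd1KO+ciliaKO than in noncystic males (-0.47, adjusted p = 0.00669), where Ncstn was lower as well (-0.23). In females Aph1b was lower in Pkd1KO than in Pkd1KO+ciliaKO (-0.32). For Pkd1KO against Pkd1KO+ciliaKO 3.77% of all genes were called in males and 11.7% in females. For Pkd1KO+ciliaKO against noncystic males the share was 8.89%. Of 5 Notch target genes that passed the filter 0 were called in any comparison of genotypes by edgeR, beside 2.54% to 11.7% of all genes. Between noncystic males and females 3 of 5 were lower in males, Hes1 (-0.37), Hey2 (-0.55) and Nrarp (-0.51), beside 27.5% of all genes called.

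Of the genes that process or inhibit the proteases, 15 in all, 2 were called between Pkd1KO and noncystic males, beside 6.3% of all genes. Timp1, an inhibitor of metalloproteases, was higher (2.50, adjusted p = 0.0259). Plekha7, a junction protein that docks Tspan33 and ADAM10, was lower (-0.28, adjusted p = 0.0492). Plekha7 was not called without the 4 male libraries that stand apart. In females and in either comparison of Pkd1KO with Pkd1KO+ciliaKO 0 of 15 were called. Beside these stood 3.34% of all genes in females against noncystic, and 3.77% in males and 11.7% in females against Pkd1KO+ciliaKO. Between Pkd1KO+ciliaKO and noncystic males the proprotein convertase Pcsk5 was lower (-0.44), beside 8.89% of all genes called. Between noncystic males and females 5 were higher in males, including Pcsk5 (0.52), Furin (0.32) and Plekha7 (0.28), and 2 were lower, including Timp1 (-1.28). Of all genes 27.5% were called between these groups.

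Substrates of ADAM17 gave few calls. Muc1, a tubule mucin, was higher in Pkd1KO than in noncystic males (0.67, adjusted p = 0.00525; 1 of 16) and females (0.40, adjusted p = 0.0369; 1 of 14). Against Pkd1KO+ciliaKO mice Alcam was lower in females (-0.31). Between Pkd1KO+ciliaKO and noncystic males 4 were higher, including Muc1 (0.65), Alcam (0.32) and Ereg (2.50), and Mertk was lower (-0.34). Of 9 other membrane Adam genes, Adam8, mostly a leukocyte protease, was higher in Pkd1KO than in Pkd1KO+ciliaKO females (1.50, adjusted p = 0.00319), and Adam15 was lower in Pkd1KO+ciliaKO than in noncystic males (-0.38, adjusted p = 0.0484). Between noncystic males and females 3 ADAM17 substrates were higher in males, including Mertk (0.30), 4 were lower, including Vcam1 (-1.21) and Muc1 (-0.70), and the Adam genes Adam9 (0.31) and Adam15 (0.31) were higher. Of all genes, 6.3% in males and 3.34% in females were called for Pkd1KO against noncystic. The share was 11.7% against Pkd1KO+ciliaKO in females, 8.89% for Pkd1KO+ciliaKO against noncystic males, and 27.5% between the noncystic sexes.

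Of the 27 ADAM10 substrates 4 were higher and 6 lower in noncystic males than in noncystic females, beside 27.5% of all genes called. Cadm1, a cell adhesion molecule (1.19), and Met, the receptor of hepatocyte growth factor (0.42), were among the higher, and Dsg2 (-1.14) and Cd44 (-1.24) among the lower.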

How the data were processed

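TRAP RNASeq libraries (ribosome pull-down, RiboErase kit) of 45 kidneys were trimmed with fastp 0.20.0, aligned with STAR 2.7.9 to GRCm38.p6 and counted with featureCounts 2.0.0 by the authors, who deposited whole-number counts per gene (GENCODE vM25). The authors also deposited TPM tables, 1 for each sex, scaled separately. Strand and multimapping settings are not given in the sources used here.

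A gene entered the tests of a sex if it was protein-coding and had 6 counts or more in at least 20% of that sex's libraries (15991 genes in males, 15968 in females, 15828 in both). Counts were scaled by TMM and tested pairwise within a sex with edgeR 4.0.16 (R 4.3.3; quasi-likelihood test, Benjamini-Hochberg adjusted p at most 0.05), and noncystic males against noncystic females likewise. Interactions with sex were tested in 1 fit of all groups. Alternatives used DESeq2 1.42.0, and limma 3.58.1 on log2(TPM + 1). Relations between mice used 100000 permutations (Python 3.11.15, scipy 1.17.1). The scripts were tested on simulated data. The lowest chi-square per degree of freedom between any 2 mice of a group was 39.7 over 149 pairs, so none was counted as 1 sample with another. The members and gene lists were chosen with earlier results of these data known. Named genes were the members and, from each list, up to 4 past the threshold with the smallest p in each comparison, plus the 5 most like Tspan5 and the 5 most like Adam10. Some listed genes are not reported here.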

Additional observations from a re-analysis of the deposited data

Results flagged for a closer look

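Over 42 pairs of gene and group, 5 mice stood apart from the rest of their group by Dixon's criterion, which chance alone meets in about 1 group in 20. Tspan15 was at 25.1 CPM in Pkd1KO female replicate 3, with the next mouse at 18.3. Tspan17 was at 13.0 CPM in Pkd1KO male replicate 4, with the next at 9.46. Adam17 was at 57.6 CPM in Pkd1KO male replicate 3, with the next at 45.9. Tspan33 was at 32.2 CPM in Pkd1KO+ciliaKO male replicate 8, the lowest, with the next at 44.6. In females Tspan33 was at 68.4 CPM in Pkd1KO+ciliaKO replicate 1, with the next at 52.9. Pkd1KO male replicate 4 and Pkd1KO+ciliaKO male replicate 8 are among the libraries that lay apart on the first principal component. No value of Tspan5 or Adam10 was singled out.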

How the results depend on the processing

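Of 1170 alternative values for 68 log2 differences of the members, 1085 kept direction and side of the threshold, 12 gained a call, 12 lost one, and 61 turned sign. For Tspan5 in the comparisons with Pkd1KO no threshold was used. A value there was kept if its sign held and it moved by less than the SD within groups. None of the 61 that turned sign was called in either sign. In males, Pkd1KO against Pkd1KO+ciliaKO called 1 member (Adam10) instead of 0 under DESeq2, DESeq2 size factors, 1 fit of all genotypes, filterByExpr or without the 4 males, and 0 to 1 leaving out each mouse. In females that comparison called 0 instead of 1 (Tspan14) under 1 fit of all genotypes, limma or the block, and 0 to 1 leaving out each mouse. For Pkd1KO+ciliaKO against noncystic males limma called 1 member (Tspan33, adjusted p = 0.0406). Leaving out each noncystic mouse called 3 to 5 members between the sexes.

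The log2 differences that turned sign were these. With limma on TPM, Pkd1KO against Pkd1KO+ciliaKO gave -0.031 for Tspan14, -0.11 for Tspan33 and -0.068 for Adam17 in males and -0.11 for Tspan17, -0.013 for Tspan33 and -0.036 for Adam17 in females, and Pkd1KO+ciliaKO against noncystic females gave 0.097 for Tspan5 and 0.099 for Tspan17. Without the 4 males Pkd1KO against Pkd1KO+ciliaKO gave -0.0099 for Tspan17 and -0.050 for Tspan33, and Pkd1KO+ciliaKO against noncystic gave -0.012 for Adam17. Without the 2 females Pkd1KO against noncystic gave 0.065 for Tspan17, and Pkd1KO+ciliaKO against noncystic gave 0.014 for Tspan5 and 0.021 for Tspan17. With the replicate block Tspan33 was at -0.076 for Pkd1KO against Pkd1KO+ciliaKO males and Tspan5 at 0.0084 for Pkd1KO+ciliaKO against noncystic females. For Pkd1KO+ciliaKO against noncystic males DESeq2 and its size factors each gave -0.0071 for Tspan14, and -0.0016 and -0.0014 for Adam17, and filterByExpr gave -0.0018 for Tspan14. Among interactions Tspan33 was at -0.025 (Pkd1KO against noncystic, without the 2 females), Tspan17 at -0.020 and Adam17 at 0.0061 (Pkd1KO against Pkd1KO+ciliaKO, without the 4 males; 0.0061 for Adam17 with size factors), and Tspan15 at 0.019 (Pkd1KO+ciliaKO against noncystic, without the 4 males).

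Leaving out each mouse spanned 0 for Adam17 in males in all 3 comparisons (-0.0086 to 0.12 for Pkd1KO against noncystic, lowest without Pkd1KO replicate 3, -0.016 to 0.097 for Pkd1KO against Pkd1KO+ciliaKO, -0.029 to 0.048 for Pkd1KO+ciliaKO against noncystic), for Tspan33 in Pkd1KO against Pkd1KO+ciliaKO males (-0.056 to 0.038) and for Tspan14 in Pkd1KO+ciliaKO against noncystic males (-0.042 to 0.044). In females it spanned 0 for Tspan17 in all 3 (-0.12 to 0.065, -0.070 to 0.089 and -0.11 to 0.045, in the same order) and, in Pkd1KO+ciliaKO against noncystic, for Tspan5 (-0.059 to 0.030) and Tspan33 (-0.072 to 0.065).

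Counts of all genes moved more, and the cause was not tested. Under DESeq2 they were 1640, 1234 and 2157 in males (Pkd1KO against noncystic, Pkd1KO against Pkd1KO+ciliaKO, Pkd1KO+ciliaKO against noncystic; 1008, 603 and 1422 by edgeR) and 964 and 1269 in females for the first and last (533 and 405). With limma they were 625 for the first in males and 1000 for the last in females, and 1 fit of all genotypes gave 929 for Pkd1KO against Pkd1KO+ciliaKO in males. Leaving out each mouse gave 742 to 1155, 403 to 630 and 965 to 2359 in males (the last without noncystic replicate 3). In females it gave 349 to 676 (lowest without noncystic replicate 6), 1241 to 2084 (lowest without Pkd1KO+ciliaKO replicate 3) and 8 to 746. The last, 405 with all mice, was 86 to 104 without noncystic replicate 2, 3, 6 or 7, 8 to 13 without Pkd1KO+ciliaKO replicate 2, 3 or 4, and 746 without noncystic replicate 5. Without the 4 males Pkd1KO+ciliaKO against noncystic called 2240, and without the 2 females 926. Interactions called 0 and 1 instead of 2 for Pkd1KO against noncystic, and 20 and 2 instead of 5 for Pkd1KO+ciliaKO against noncystic, without the 4 males and the 2 females.

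With replicate number as a block, Pkd1KO against Pkd1KO+ciliaKO called 170 genes in males and 612 in females (1869 without the block), Pkd1KO+ciliaKO against noncystic 764 and 100, and Pkd1KO against noncystic females 294. Samples with the same number did not deviate together: pairs had correlations of -0.28 to 0.276, so the numbers do not pair the mice. Not every mouse correlated best with its own number. Adam10 in males stayed above the threshold with the block (adjusted p = 0.183).

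Alternatives chosen after seeing the data were leaving out each noncystic mouse between the sexes, the list counts and list genes without the libraries that stand apart or under DESeq2, and the Adam10 relations without those libraries. Without the libraries that stand apart the list counts moved most between Pkd1KO+ciliaKO and noncystic males, where 3 other tetraspanins (0 with all mice), 3 other Adam genes (1) and 5 processing genes (1) were called. Depth did not limit the 7 detected members. Tspan10 had too few reads to be compared, and whether depth or absence of its RNA was the reason was not tested.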
